A study of Apis mellifera with 24 samples.

Results

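The 100 genes described here rose and fell together with GB55205 among the brains of 24 honey bee workers. They were selected on that relation, as the genes with the highest Pearson r with GB55205 of 8250 genes eligible, out of 15314 gene identifiers in all. GB55205 belongs to a run of 12 consecutive identifiers, GB55204 to GB55215, which the label of the gene group calls royal jelly transcripts. The tables used here pair no identifier with a gene name, so this label could not be checked, and genes are given by identifier only. The r of the members is what chose them and is given as a description, with no test.

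Royal jelly is the food that young nurse workers secrete from the hypopharyngeal glands of the head and feed to larvae and to the queen. Its main proteins, the major royal jelly proteins, come from a family of related genes that lie together in the genome, and transcripts of the family have also been found in the bee brain. As workers age and change from nursing to other tasks, the glands regress and their royal jelly output falls. Workers that lose their queen can activate their ovaries and lay unfertilised eggs.

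Each library was made from polyA RNA of the brain of 1 worker that had lived without a queen for about 18 days. The bees were daughters of reciprocal crosses between Africanized (Afr) and European (Eur) bees, written mother first. Block A held lineage L875 (Eur x Afr) and lineage L888 (Afr x Eur), and block B held L882 (Eur x Afr) and L894 (Afr x Eur). From every lineage 3 reproductive and 3 sterile sisters were taken, which makes 12 bees of each status. In L888 the letters A and I of the table headers go with the opposite status to that in L875, L882 and L894. The sample labels were followed, so every comparison of reproductive and sterile bees that includes L888 carries this doubt. The labels do not say how reproductive status was scored, and because no identifier is named, the defining markers of brain or of gland could not be looked up.

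Library totals ran from 5.19 to 16.7 M expected counts. Abundant transcripts took very unequal shares of them: GB55204 to GB55215 held 0.633% of the counts of the bee L882 Reproductive 1 and 58.2% of those of L894 Sterile 3. Levels are therefore CPM, counts scaled to a common total, with totals that leave out these 12 genes and GB53576, GB44549, GB45796 and GB43247, and a left-out gene can hold more counts than the total it is scaled to. These remaining totals ran from 3.84 to 9.79 M. They were lowest, at 3.84 and 4.11 M, in L875 Reproductive 1 and L894 Sterile 3, the bees with the second highest and the highest level of GB55205, and were 5.004 M in L882 Reproductive 1, the bee with the least. The part of depth in the results was not tested.

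GB55205 itself varied from bee to bee far more than the lineages or statuses differed. In L875 it stood at 900971, 83542 and 168415 CPM in the reproductive bees and at 674486, 483073 and 8847 in the sterile bees. In L888 it stood at 19056, 234494 and 22353 CPM in reproductive and at 39382, 316493 and 144011 in sterile bees. In L882 the values were 2917, 347761 and 112592 CPM in reproductive and 435539, 732679 and 307408 in sterile bees. In L894 they were 313465, 201525 and 383902 CPM in reproductive and 852827, 428156 and 1163478 in sterile bees. Reproductive and sterile sisters overlapped in L875, L888 and L882, while in L894 every sterile bee lay above every reproductive bee. The bees L875 Sterile 3 and L882 Reproductive 1 were the lowest of all, each far below its sisters.

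**Figure D1:**
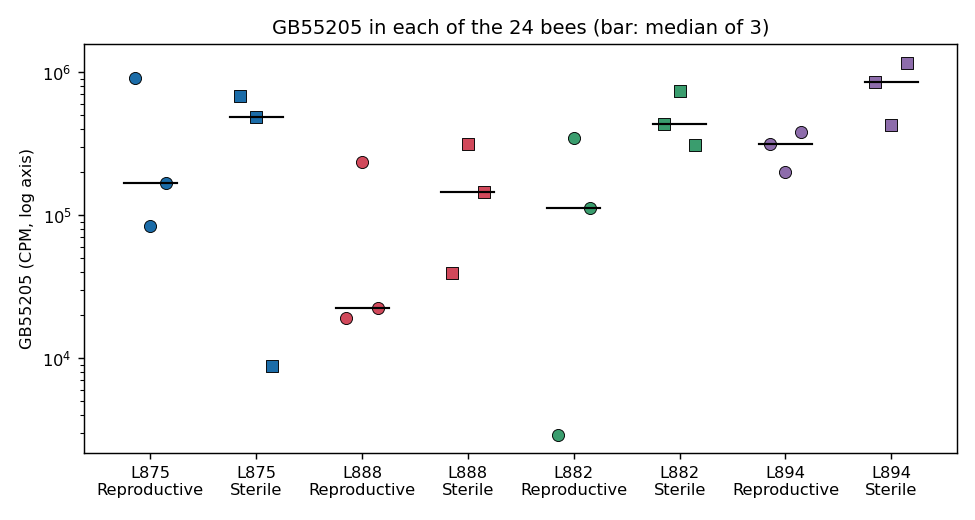
Level of GB55205 in CPM (log axis) in each of the 24 bees, by lineage and status, with circles for reproductive bees, squares for sterile bees and a bar at the median of 3 bees. The bees run from 2917 CPM in L882 to 1163478 CPM in L894, and the statuses overlap in every lineage except L894.

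Over all lineages GB55205 had a mean of 232583 CPM ± 247475 in reproductive and 465532 ± 343182 in sterile bees (SD, n = 12 each). The difference was -1.33 on the log2 scale, reproductive minus sterile, which missed the threshold when status was permuted among sisters (exact two-sided p = 0.141, where the smallest possible p is 1.25e-05). By lineage the difference was 0.71 (L875), -1.39 (L888, where the headers put the statuses in doubt), -3.25 (L882) and -1.38 (L894). Within block A it was -0.34 (exact permutation p = 0.83) and within block B -2.31 (exact permutation p = 0.015). Without the bee L875 Sterile 3 it was -1.83 (exact permutation p = 0.0105), and without L882 Reproductive 1 it was -0.82 (exact permutation p = 0.2497). A single low bee therefore decided on which side of 0.05 the status difference of GB55205 fell.

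The members followed GB55205 with r from 0.7474 to 0.9546 over the 24 bees, on log2(CPM + 1) with lineage means subtracted. GB50931 and GB42450 were the last genes inside, at 0.7476 and 0.7474, and GB42696 and GB43141 the first outside, at 0.7470 and 0.7462, so the edge of the group is a cut through a continuous range. Only 3 members reached 0.9 and 35 reached 0.8. The median r was 0.786 for the members and -0.133 for all eligible genes, of which 3349 had an r above 0. In the other direction, 67 eligible genes had an r as far below 0 as the members were above it.

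That relation depends on what the counts are scaled to. With CPM of the full totals, in which GB55205 and its neighbours take up part of every library, 41 of the 100 members were still among the 100 highest. Then 96 members were eligible, with a median r of 0.140; 60 of them had an r above 0 and 36 an r below 0. The median over the 7687 genes eligible on that scale was -0.632, so the members stood above most genes on both scales, but for 36 of them the sign of the relation turned. With totals scaled by TMM factors, which also limit the weight of abundant genes, those 36 members all had an r above 0 (lowest 0.711), and 79 of the 100 members were kept. All levels below are on the scale without the left-out genes.

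GB49708 followed GB55205 most closely, with an r of 0.9546. In L875 it stood at 300.5, 36.2 and 36.03 CPM in the reproductive bees and at 234.8, 232.6 and 2.94 in the sterile bees. In L888 it stood at 9.18, 101.7 and 10.65 CPM in reproductive and at 15.6, 56.9 and 30.03 in sterile bees. The bee order was nearly that of GB55205 in both lineages, with L875 Sterile 3 and L888 Reproductive 1 lowest. In L882 the values of GB49708 were 4.996, 165.7 and 49.3 CPM in reproductive and 106.0, 364.6 and 137.0 in sterile bees. In L894 they were 98.8, 42.6 and 105.8 CPM in reproductive and 133.0, 172.5 and 443.9 in sterile bees. The lowest and the highest of these bees differed by 151-fold, and again L894 was the lineage in which no reproductive bee reached a sterile one.

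GB41326, next by r at 0.930, had an even wider range, from 1.80 CPM in L875 Sterile 3 to 1090 in L894 Sterile 3, a ratio of 607. Its lowest, median and highest bees were 1.80, 101.6 and 693.7 CPM in L875 and 4.85, 44.9 and 288.3 in L888. They were 12.2, 396.3 and 920.8 CPM in L882 and 137.8, 464.9 and 1090 in L894. GB45797, at rank 7 by r, ran from 11.2 to 36481 CPM, a ratio of 3260. The rest of the 10 closest members were less variable. GB45107 ran from 16.98 to 68.2 CPM with a median of 40.7, and GB55578 from 211.4 to 550.5 with a median of 407.1. GB49095 ran from 19.6 to 153.9 CPM, GB44424 from 13.1 to 97.4, GB52958 from 15.3 to 265.2, GB53578 from 227.4 to 4260 and GB55007 from 66.95 to 396.1. A high r in this group thus went with ranges from 2.60-fold (GB55578) to 3260-fold (GB45797).

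**Figure D2:**
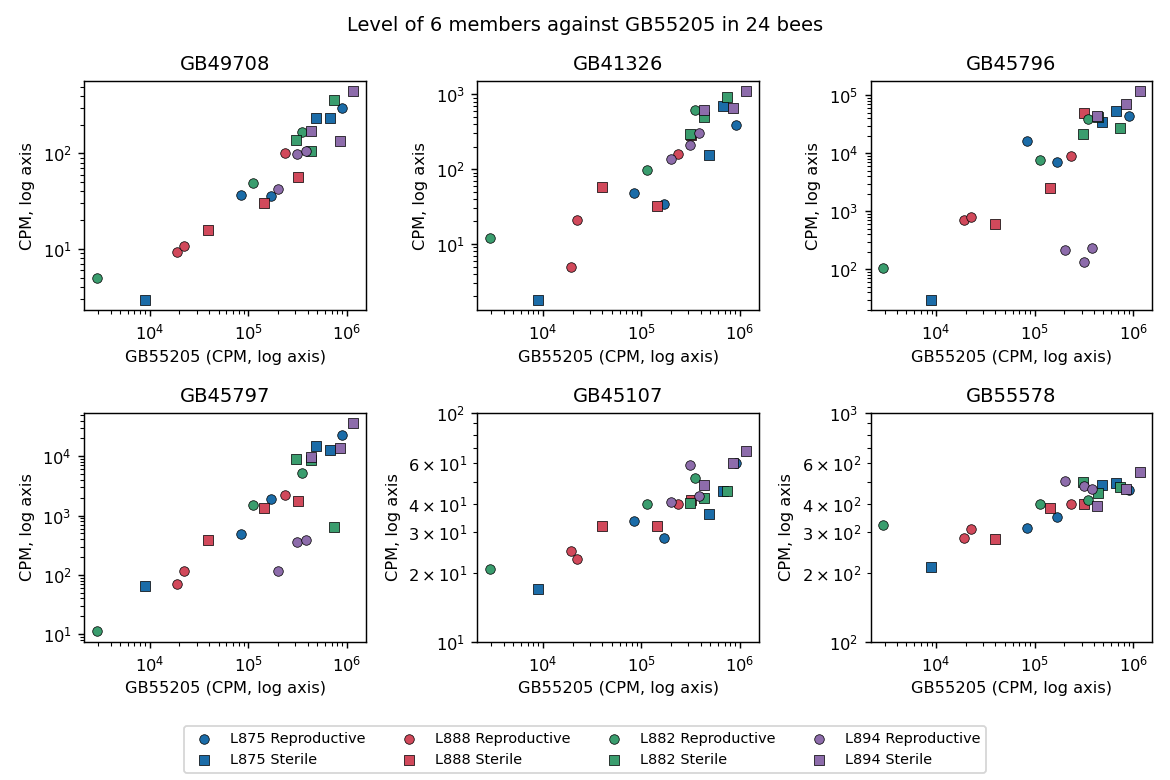
Level of 6 members (y axes, CPM, log) against GB55205 (x axes, CPM, log), 1 point per bee, coloured by lineage, with circles for reproductive and squares for sterile bees. GB49708 spans 151-fold, GB41326 607-fold and GB55578 2.60-fold. In the panel of GB45796 the 3 reproductive bees of L894 lie far below the other bees with as much GB55205. In that of GB45797, L882 Sterile 2, at 634.8 CPM, lies near those 3 bees.

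The members differed in how strongly they changed with GB55205, with a few steep and most shallow. The slope is the change of log2(CPM + 1) of a member for 1 log2 unit of GB55205, within lineages. Its median was 0.18, with a range from 0.06 to 1.43, and 65 members had a slope under 0.25. A slope of 0.5 or more was found for 8 members, GB45796, GB45797, GB41326, GB55203, GB49708, GB44548, GB44013 and GB41776, and for 13 of all eligible genes (0.158%). This bound cuts a continuous range, with GB41776 at 0.503 and GB53578 at 0.493. The steep members had a median spread of 2.13 between sisters (SD of log2 values), and the other 92 members one of 0.48. Between the lowest and the highest bee, the steep members changed by a median of 607-fold and the others by 4.31-fold. These medians leave out GB44013 (steep) and GB45532 (shallow), whose lowest value was 0. Since r and slope are both taken against GB55205, these figures describe the group and test nothing.

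**Figure D3:**
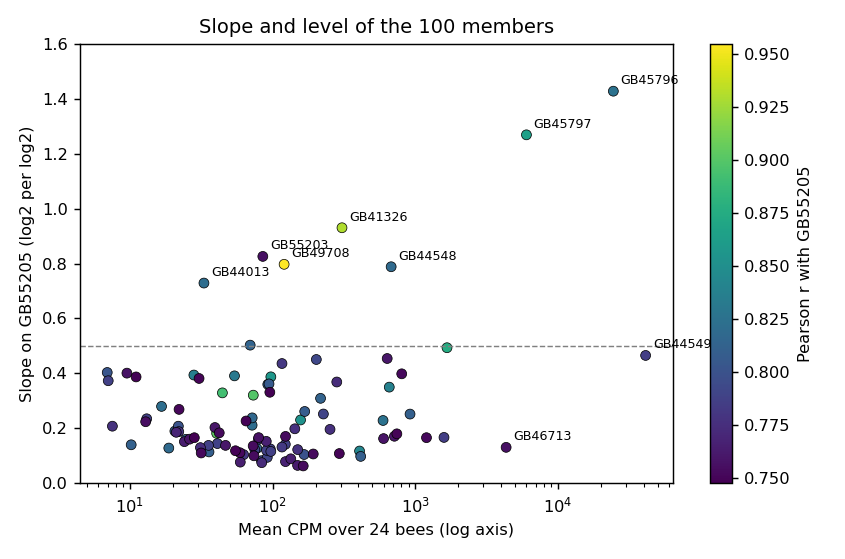
Slope of each of the 100 members on GB55205 (y axis, log2 per log2 unit, within lineages) against its mean level over 24 bees (x axis, CPM, log), coloured by Pearson r, with a dashed line at 0.5. GB45796 and GB45797 lie highest, at 1.43 and 1.27, while the most abundant member, GB44549, lies just under the line and the majority below 0.25.

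Abundance among the members ran from 6.94 to 41099 CPM as a mean over bees. Their median was 84.7 CPM, against 40.9 for the eligible genes, 7 members had a mean of 1000 CPM or more and 32 had a mean under 50. CPM values are not scaled by transcript length, so levels of different genes are not compared further. GB44549 and GB45796, at means of 41099 and 24417 CPM, were also among the genes left out of the totals. GB44549 ran from 3737 CPM in L888 Reproductive 3 to 124524 in L875 Reproductive 1, with a median of 30026. Of the other abundant members, GB53578 ran from 227.4 to 4260 CPM and GB46713 only from 2140 to 5781.

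GB45796 and GB45797 stood apart from the group in L894. In the reproductive bees of that lineage GB45796 was at 134.2, 212.6 and 228.1 CPM, and in the sterile bees at 70421, 43283 and 116492. GB45797 was at 359.7, 115.4 and 381.6 CPM in the same reproductive bees and at 13853, 9759 and 36481 in the sterile bees. GB55205 was not low in those reproductive bees, at 201525 to 383902 CPM. A bee of another lineage at such a level of GB55205 had far more of both genes: L882 Reproductive 2, at 347761 CPM of GB55205, had 38271 CPM of GB45796 and 5171 of GB45797. L882 Sterile 2, at 732679 CPM of GB55205, had 27680 CPM of GB45796 but 634.8 of GB45797. In L875 and L888 the statuses overlapped for both genes, with 43561, 16306 and 7211 CPM of GB45796 in reproductive and 52613, 35137 and 29.7 in sterile bees of L875. Whether the status difference within L894 exceeds that of the other lineages was not tested here.

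Other steep members had wide ranges as well. GB44013 was listed at 0 in L875 Sterile 3 and at 262.0 CPM in L894 Sterile 3. GB55203 lay between 0.103 and 0.915 CPM in 5 bees of L888 and at 49.3 in L888 Sterile 2, and it reached 454.9 in L875 Sterile 1. GB44548 ran from 10.4 CPM in L882 Reproductive 1 to 3092 in L875 Sterile 1. In L894 the reproductive bees had 311.2, 239.4 and 280.4 CPM of GB44548 and the sterile bees 1138, 1445 and 1026, with no overlap.

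The same few bees were low across the members. L875 Sterile 3 was the lowest of the 24 bees for 45 members, L888 Reproductive 1 for 29 and L882 Reproductive 1 for 12, and the remaining 14 members were lowest in L888 Reproductive 3 or L888 Sterile 1. L894 Sterile 3, the bee with the most GB55205, was the highest for 37 members. The members were also related to each other. Of their 4950 pairs, 97.4% had an r above 0.5 and 0 had an r below 0, with a median of 0.722. Genes chosen for their relation to 1 gene are bound to be related to each other, and the points share libraries and totals. A single component held 72.3% of the members' variance within lineages, against 25.7% for all eligible genes.

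**Figure D4:**
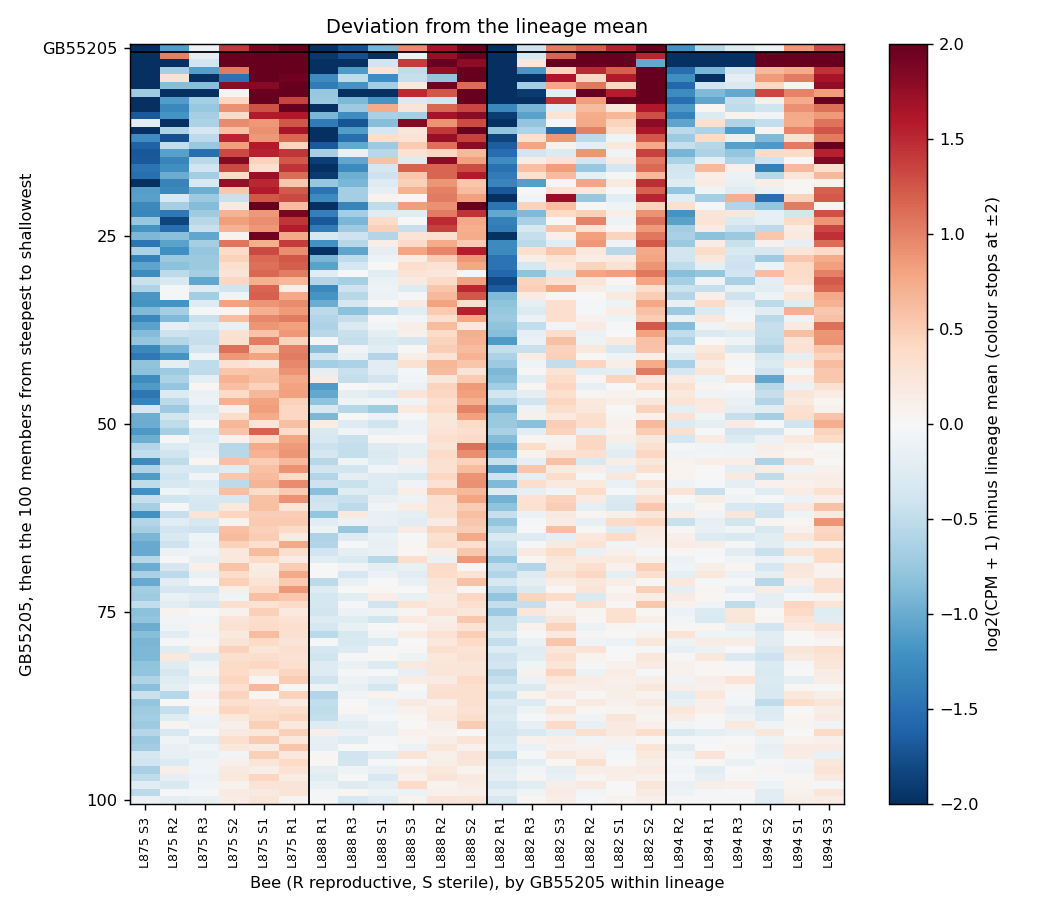
Deviation of log2(CPM + 1) from the lineage mean (colour, stopping at ±2) for GB55205 and, beneath it, the 100 members from steepest to shallowest slope, with the 6 bees of each lineage ordered by GB55205 from left to right. L875 Sterile 3, L888 Reproductive 1 and L882 Reproductive 1 are low across the members, and the pattern is faintest in L894.

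The relation held in separate sets of bees to different degrees. All 100 members had an r above 0 with GB55205 within each block, with medians of 0.880 in block A and 0.727 in block B (n = 12 bees each). L875, L888 and L882 had medians of 0.907, 0.874 and 0.841, and L894 one of 0.599 (n = 6 bees each). In L894, where GB55205 varied least (SD of 0.94 on the log2 scale, against 1.77 to 2.92 in the other lineages), 90 members had an r above 0 and 62 reached 0.5. Among reproductive bees the median was 0.793 and among sterile bees 0.860. Without L875 Sterile 3 and L882 Reproductive 1, the bees farthest from their lineage mean, all 100 members kept an r above 0, with a median of 0.748. These bees were among those that chose the members, so the values are no independent check.

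Which genes made the group depended more on single bees than the sign of the relation did. Of the 100 members, 22 were among the 100 highest whichever bee was left out, and these included 9 of the 10 genes with the highest r, with GB45797 as the exception. Leaving out L882 Reproductive 1 kept 38 members, and leaving out L875 Sterile 3 kept 65. Block A alone kept 33 members and block B alone 44. The 100 highest genes of block A and those of block B shared 9 genes, or 9% of each list, and all 9 were members: GB49708, GB41326, GB45107, GB44424, GB45797, GB55007, GB50930, GB45796 and GB40808 (the last chosen after its values were seen).

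The members also rose with most other genes of the run from GB55204 to GB55215, which the rule had left out as candidates. All 100 members had an r above 0.5 with GB55204, GB55206, GB55208, GB55209, GB55211, GB55212 and GB55213, each of which had an r of 0.897 to 0.974 with GB55205 itself. With GB55215, 95 members passed 0.5. The members were chosen by their r with GB55205, so a high r with genes that follow GB55205 closely largely comes with that choice. These counts are a description and no added support. GB55207 and GB55214 behaved otherwise: they had an r of 0.238 and 0.201 with GB55205, and 2 and 0 members passed 0.5 with them. GB55210 was hardly detected, at a mean of 0.130 CPM. Of the other genes that the rule names, GB53576 had an r of 0.623 with GB55205 (rank 490), and GB49544 and GB43247 had an r of 0.113 and 0.0362.

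Some members carry neighbouring identifier numbers. There were 7 pairs with consecutive numbers, or 14 members: GB40593 and GB40594, GB41776 and GB41777, GB44548 and GB44549, GB45796 and GB45797, GB47956 and GB47957, GB50930 and GB50931, and GB52957 and GB52958. The r within these pairs ran from 0.853 to 0.954. Another member, GB55203, has the number next to GB55204, with an r of 0.837. Eligible genes that were next in number to a member but not members had a median r with GB55205 of -0.0471 (108 genes). The sources used here do not give how reads that match more than 1 gene were counted, so that reads shared between such neighbours, if they are close copies, cannot be told apart from separate transcripts.

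None of the members passed the test for reproductive status. In edgeR's quasi-likelihood test with lineage as a term, 0 of the 100 members were called, and 0 of all 9316 genes tested (0%), at a Benjamini-Hochberg adjusted p of 0.05. At an unadjusted p under 0.05 there were 16 members and 216 genes in all (2.32%). That count of members depended on single bees, from 5 without L888 Sterile 2 to 41 without L875 Reproductive 1, with 33 without L875 Sterile 3. The adjusted p was 0.9998 for every member named here, and DESeq2 also called 0 members, with 1 gene called in all. The log2 difference, reproductive minus sterile, was below 0 for all 100 members, with a median of -0.27 (range -2.97 to -0.01), against a median of 0.01 over all genes. Because the members were chosen to move together, their shared sign and their count at an unadjusted p under 0.05 are little more than 1 observation. The rule subtracted only lineage means, so status differences within lineages were among the values that chose the members. Their shared sign and that count are therefore partly built in and test nothing. The sign followed that of GB55205 in the same bees. In bulk tissue fewer cells of a type and less RNA per cell cannot be told apart.

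The member with the smallest p was GB55203, at -2.97 (SE 0.81, unadjusted p = 0.00119, edgeR). GB44013 had a log2 difference of -2.45 (SE 0.69), GB45796 one of -2.33 (SE 1.14) and GB44548 one of -1.49 (SE 0.65), and none of these passed. GB49708 and GB41326, which followed GB55205 most closely, had -0.81 (SE 0.59) and -1.29 (SE 0.66). The shallow members GB45107, GB55578 and GB46713 had -0.13 (SE 0.18), -0.13 (SE 0.13) and -0.12 (SE 0.18).

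Lineage by lineage, the statuses separated for some members in block B and for none in block A. All 3 sterile bees lay above all 3 reproductive sisters for 22 members in L882, against 5.89% of eligible genes, and for 17 members in L894, against 9.65%. This was so for 0 members in L875 and 0 in L888, where the share of eligible genes was 0.594% and 1.19%. The counts of 0 in block A thus lie near the shares over all eligible genes. The opposite order was seen for 1 member, in L894, against 6.79% of eligible genes. For 59 members of L875, 89 of L888, all 100 of L882 and 75 of L894 the sterile mean was the higher one. For these means the share over all eligible genes was not computed. The rule subtracted only lineage means, so status differences within a lineage were among the values that chose the members. GB55205 itself differed by -3.25 on the log2 scale in L882 and separated fully in L894. An excess over eligible genes is therefore partly built in and tests nothing. In L882 the bee L882 Reproductive 1, lowest for 12 members among all bees, belongs to the lower group.

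Differences between lineages were removed before the members were chosen, so they did not choose them. They were still not free of GB55205. The members followed it from bee to bee, and each lineage mean rests on the same 6 bees for all genes. L894 had the highest mean for 74 members and L888 the lowest for 93, as was so for GB55205, whose mean log2 level was 18.83 ± 0.94 in L894, then 17.47 ± 2.50 (L875), 17.19 ± 2.92 (L882) and 16.20 ± 1.77 (L888) (SD, n = 6 each). The spread between sisters in L875, L888 and L882 was larger than the distance between neighbours in that order. How many of all eligible genes have the same highest or lowest lineage was not computed. edgeR's F test over the 4 lineages called 1 of the 100 members, where 3.17% of all genes were called. At an unadjusted p under 0.05 there were 43% of members and 27.5% of all genes. Members that move together do not count as separate observations, here or between the crosses below.

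The called member was GB44013 (adjusted p = 0.0338, edgeR). Its bees stood at 10.15, 1.01 and 1.72 CPM in the reproductive and 17.9, 4.89 and 0 in the sterile bees of L875, and at 0.516, 0.941 and 0.367 in the reproductive and 0.123, 27.6 and 1.07 in the sterile bees of L888. In L882 it was at 0.200, 26.03 and 0.591 CPM in reproductive and 62.1, 87.2 and 40.3 in sterile bees. In L894 it was at 27.5, 19.8 and 41.8 CPM in reproductive and 97.3, 62.05 and 262.0 in sterile bees. All bees of L894 lay above all bees of L875, while L888 and L882 overlapped with both. Its adjusted p ran from 0.00477 to 0.0906 as single bees were left out, and the count of called members from 0 to 13. It was 13 without L888 Sterile 2, where 7.73% of all genes were called, and 8 without L875 Sterile 3, where 3.78% were. DESeq2 called 19 members, where 14.4% of all genes were called, and limma voom 3, where 2.43% were.

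Between the reciprocal crosses, none of the members passed in either block. In block A, where L888 was set against L875, edgeR called 0 of the 100 members and 0.150% of all genes. The log2 difference, L888 minus L875, was below 0 for 97 members, with a median of -0.49, against -0.003 over all genes. GB55203 had -4.65 (SE 1.36, adjusted p = 0.231, edgeR) and GB44549 -2.13 (SE 0.68, adjusted p = 0.271, edgeR). In block B, where L894 was set against L882, edgeR called 0 of the 100 members and 0.118% of all genes. There the log2 difference, L894 minus L882, was above 0 for 86 members, with a median of 0.23, against -0.019 over all genes. The Afr x Eur lineage was thus the lower one in block A and the higher one in block B for most members, and neither direction passed the test. At an unadjusted p under 0.05 there were 32 members in block A (13.2% of all genes) and 5 in block B (13.1% of all genes), and DESeq2 called 1 and 0 members. The 32 of block A became 8 without L875 Reproductive 1 and 62 without L875 Sterile 3, where the median log2 difference was -0.28 and -0.64.

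Reads assigned to the father's or the mother's copy were not used to choose the members. Both allele tables, for reproductive and for sterile bees, hold 40 of the 100 members, against 31.5% and 31.8% of eligible genes. Of the 8 steep members only GB41326 and GB49708 are among them. The sources used here do not state the rule that assigned reads to a parent, and reads counted for both parents would draw the shares towards 50%. Sisters with the same parents count as replicates in these fits, which have no term for lineage.

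In reproductive bees, 4 of the 40 members had more paternal than maternal reads at an adjusted p of 0.05 in edgeR, where 9.67% of all genes did, and 0 had more maternal reads. In sterile bees it was 6 of 40 members, where 9.08% of all genes did, again with 0 maternal. The members' share in reproductive bees was thus near that of all genes, as was the median log2 ratio, which was 0.14 for the members against 0.16 for all genes, and among sterile bees 0.14 against 0.17. GB44223, GB52958 and GB41921 were called in both statuses. GB50930 was called in reproductive bees, and GB41919, GB45612 and GB55578 in sterile bees. In sterile bees the call of GB41921 was lost in 11 of 15 alternatives, that of GB41919 in 9 and that of GB45612 in 6, and in reproductive bees that of GB41921 in 3. Of these names GB41921, GB41919 and GB45612 were chosen after their values were seen. When limma treated lineage as a random effect, 1 member of 40 was called in each status, GB44223 in both, where 2.27% of all genes in reproductive and 2.76% in sterile bees were called.

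GB44223 had the highest paternal to maternal ratio of the called members. Among reproductive bees its paternal share was 71.4% ± 11.3 (L875), 59.9% ± 4.2 (L888), 72.3% ± 8.9 (L882) and 69.0% ± 5.0 (L894), as mean and SD of n = 3. In sterile bees it was 56.3% ± 4.1, 72.7% ± 7.4, 76.5% ± 6.7 and 73.0% ± 5.8, in the same order. Behind each lineage share stood 1448 to 3797 allele reads. The father's copy thus led in all 4 lineages and both statuses, whether the father was African or European. The log2 ratio of paternal to maternal reads was 1.14 (SE 0.16, adjusted p = 0.00273, edgeR) in reproductive and 1.25 (SE 0.19, adjusted p = 0.00485, edgeR) in sterile bees. Its expression, at 63.7 to 547.3 CPM, was highest in L894 Sterile 3.

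GB52958, at rank 8 by r with GB55205, had paternal shares of 59.7% to 68.4% over the lineages in reproductive bees and 53.9% to 69.0% in sterile bees. Its log2 ratio was 0.77 (SE 0.17, adjusted p = 0.0202, edgeR) and 0.76 (SE 0.17, adjusted p = 0.0240, edgeR). GB50930 had 0.81 in reproductive bees (SE 0.23, adjusted p = 0.0495, edgeR) and 0.72 in sterile bees (SE 0.23, adjusted p = 0.0743, edgeR), with shares of 69.0% in L888 and 81.0% in L894 but 43.4% in L875 and 52.7% in L882 among reproductive bees. GB50930 lost its call in 12 of 15 alternatives. GB55578 leaned only slightly to the father, with shares of 49.6% to 57.1% in sterile bees and a log2 ratio of 0.21 (SE 0.04, adjusted p = 0.0160, edgeR).

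GB41326 and GB49708 showed lineage patterns that an average over families hides. In sterile bees the paternal share of GB41326 was 25.7% ± 21.2 (L875), 83.7% ± 8.8 (L888), 61.8% ± 16.5 (L882) and 9.31% ± 2.3 (L894), as mean and SD of n = 3. Its reads thus came mainly from the father in the Afr x Eur family of block A and from the mother in that of block B. The L875 mean weighs L875 Sterile 3, at 1.80 CPM of GB41326, as much as its sterile sisters at 693.7 and 155.9 CPM. The share in that bee rests on few reads, so the mean and SD of sterile L875 bees are uncertain. In reproductive bees the shares were 43.3% ± 12.3, 73.1% ± 8.6, 60.3% ± 5.7 and 33.6% ± 1.6, in the same order and closer to balance in L875, L888 and L894. In L894 the ranges of mean and SD of the statuses do not meet; whether the share differs between statuses was not tested. The pooled log2 ratio was 0.12 (SE 0.32) in reproductive and -0.54 (SE 0.90) in sterile bees, with adjusted p values of 0.862 and 0.752 in edgeR. GB49708 stayed between 50.7% and 57.9% in reproductive bees and between 51.4% and 56.2% in sterile bees, except for the sterile bees of L888, at 77.6% ± 7.1 (SD, n = 3), and did not pass in either status.

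**Figure D5:**
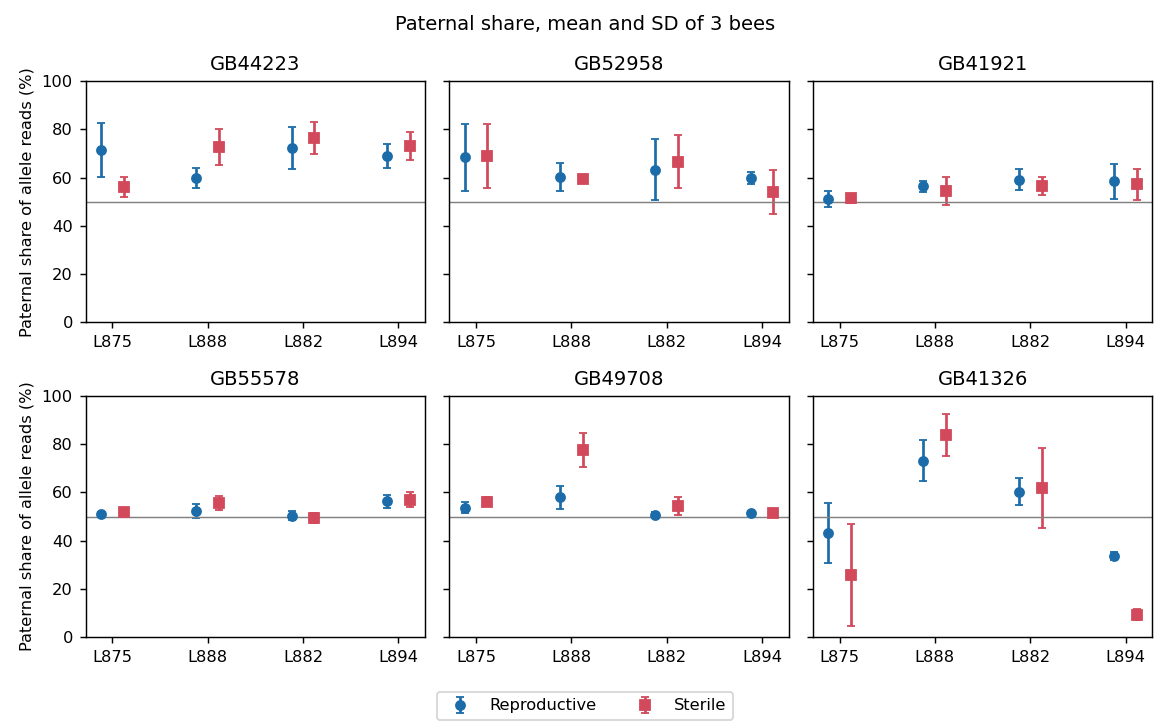
Paternal share of allele reads (y axis, percent) of 6 members by lineage, as mean and SD of 3 bees, in blue circles for reproductive and red squares for sterile bees, with a line at 50%. GB44223 lies above 50% in every lineage and status, whereas GB41326 runs from 9.31% in sterile bees of L894 to 83.7% in sterile bees of L888.

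No member followed the African or European origin of its copies beyond the threshold. For this contrast edgeR called 0 of the 40 members in reproductive bees, where 2.94% of all genes were called, and 0 of 40 in sterile bees, where 2.27% were. At an unadjusted p under 0.05 there were 9 members (22.5%, against 16.6% of all genes) and 5 members (12.5%, against 16.4%), and limma with lineage as a random effect also called 0 in both. GB50930 came closest in reproductive bees, with -0.92 for the log2 ratio of its African to its European copy (SE 0.23, adjusted p = 0.0646, edgeR), and GB55578 in sterile bees, with -0.16 (SE 0.04, adjusted p = 0.0751, edgeR).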

How the data were processed

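PolyA RNA of single worker brains was sequenced as paired ends over 2 lanes. The authors' expression table holds expected counts (estimated counts, 87.3% of them whole, with a tolerance of 0) for 24 bees and 15314 identifiers, of which 2836 had no count. Per the file headers, the deposited allele tables hold read counts of the drone (paternal) and queen (maternal) copy, with identical repeated entries (3 and 1) reduced to 1 each. HISAT2 and limma appear in the submitters' processing notes, with no version or role. Not given in the sources used here are the counting tool, genome build, annotation and allele rule. 0 identifiers matched the reference table, so no sequences or names are given, and marker lists could not be applied.

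Members had a mean of at least 5 CPM, a pseudocount of 1 and lineage means subtracted. Both the members and the genes named were chosen with earlier results of these data known. Named were the 10 highest by r, the 5 highest by level, the 5 with the largest SD between sisters, the genes next to the edge, up to 2 called members per test and direction (with at least 100 allele reads), and the genes in the rule.

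Expected counts were rounded and fitted in edgeR 4.0.16 (R 4.3.3) with filterByExpr, TMM factors and quasi-likelihood tests, adjusted by Benjamini-Hochberg over 9316 genes. Allele counts were fitted with terms for bee, parent and origin, for genes with at least 20 reads in every lineage of a status (3475 and 3480 genes). Tests were two-sided, and the fits were tested on simulated data. Alternatives were other size factors, filters and read minimums, DESeq2 1.42.0, limma 3.58.1, blocks, lineages and each bee left out, and for membership other totals, pseudocounts, level minimums, centring, references and Spearman's rho. Membership without the bees farthest from their lineage mean was added after the data were seen. p values measure the spread between single bees, many of them sisters.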

Additional observations from a re-analysis of the deposited data

Results flagged for a closer look

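Within the 6 sisters of each lineage, 20 genes (17 named members, the 2 genes just outside the group and GB55205) were examined for a bee far from the others, on log2(CPM + 1), which gave 80 groups. In 6 of them the gap of the lowest or highest bee to its nearest sister was more than 0.625 of the whole range. Chance gives this in about 1 of 20 groups, and the groups share bees. The bee L882 Reproductive 1 stood below its sisters for GB55205 (2917 CPM), GB45107 (20.8 CPM), GB44424 (13.6 CPM) and GB45796 (105.2 CPM). L875 Sterile 3 stood below its sisters for GB45796 (29.7 CPM). L888 Sterile 2 stood above its sisters for GB55203 (49.3 CPM).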

How the results depend on the processing

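The status difference of GB55205 and the parental ratios of the called members kept their direction under the alternatives. Members that were not called could change theirs. In reproductive bees 36 of 40 members had a paternal to maternal ratio above 1, and 35 without L888 Reproductive 1. The r of 36 members with GB55205 turned below 0 with full totals. No paired analysis was possible because the labels give no replicate numbers that groups share. The status difference of GB55205 passed the threshold in block B alone (-2.31) and ran from -1.83 to -0.82 as single bees were left out. Of the 100 members, 41 were kept with full totals, 61 with Spearman's rho, 33 and 44 in block A and block B alone, 57 without L875, 43 without L882 and 43 without the bees farthest from their lineage mean. Leaving out single bees kept 38 to 97. Members called between lineages numbered 4 with totals without the left-out genes as size factors, 2 with no count filter, 19 in DESeq2 and 3 in limma voom, and 0 to 13 without single bees. The count was 0 without L875 Reproductive 3, L888 Reproductive 3, L888 Sterile 3, L882 Sterile 2 or any bee of L894 but Sterile 2, and 2 to 4 without L875 Reproductive 1, L875 Sterile 1, L888 Reproductive 2 or L882 Reproductive 1. For the cross in block A, DESeq2 called 1, and leaving out bees gave 0 to 1, with 1 without L888 Sterile 2. Status and the cross in block B stayed at 0 members in every alternative run. Paternal calls over all genes fell in limma with lineage as a random effect, from 9.67% to 2.01% (reproductive) and 9.08% to 2.73% (sterile). Members called paternal fell there to 1 in each status. They numbered 2 to 7 in reproductive bees without single bees (2 without L882 Reproductive 2 or 3, 7 without L888 Reproductive 3) and 3 to 9 in sterile bees (3 without L875 Sterile 1 or 2, 9 without L894 Sterile 1). Calls by allele origin were 0 to 1 in both, with 1 without L875 Reproductive 1, L888 Reproductive 3, L894 Sterile 1 or L894 Sterile 2. The cause of these changes was not tested. Counts of 0 do not show that levels were equal, since 3 bees per group limit what could be called, and low members such as GB55203 rest on few reads in some bees.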
